A study of Mus musculus with 10 samples.

Results

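The transcriptional effect of acetate that was common to 2 lengths of glucose restriction was measured in mouse CD8 T cells. It was taken as the acetate coefficient of an additive model with terms for day and acetate and no interaction. This coefficient, called the shared effect below, pools the 2 days and does not require that they agree. All 10 of the 10 libraries of the series entered this model, 5 with acetate and 5 without. Every one of the 13182 genes with enough counts was tested, and a gene is called higher or lower where its edgeR quasi-likelihood p, adjusted by the Benjamini-Hochberg method over all genes tested, was under 0.05.

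The cells were OT-I T cells of C57BL/6 mice, taken from spleens and peripheral lymph nodes, which carry a transgenic receptor for an ovalbumin peptide. All groups were activated with that peptide and recombinant interleukin-2 in medium with 25 mM glucose for 3 days, then moved to 1 mM glucose, and all received PMA and ionomycin as a restimulation of 4 h at the end. The groups were d5 without acetate (24 h of restriction, n = 2), d5 with acetate (24 h, n = 2), d9 without acetate (120 h, n = 3) and d9 with acetate (120 h, n = 3). Acetate was 5 mM sodium acetate for the last day in both acetate groups, so it covered the whole restriction at d5 and only its end at d9. The labelled days do not equal the days of activation plus restriction, and the labels do not explain the gap. They do not say whether replicates were separate cultures or animals either, so the p-values measure the spread between these samples, which may be technical.

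Acetate is a substrate that cells can turn into acetyl-CoA through the acetyl-CoA synthetases, which places it upstream of lipid synthesis, the TCA cycle and protein acetylation. Activated CD8 T cells depend on glucose to make cytokines such as interferon-gamma at full rate, and the series is titled around acetate and effector function when glucose is scarce. PMA and ionomycin bypass the T cell receptor and switch on AP-1, NF-kB and NFAT, the factors that drive cytokine gene transcription.

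The libraries held 16.59 to 24.66 M counts. The 8 markers of cytotoxic CD8 T cells summed to 2321 to 3250 CPM (counts scaled to a common depth, with TMM factors) without acetate and to 2718 to 3544 CPM with it. Some listed markers of B cells (Ms4a1, Cd79a, Pax5, Igkc), macrophages (Lyz2, Csf1r, Adgre1, Cd14, Itgam) and NK cells (Ncr1, Klra8) lay below 1 CPM in every library. So did S100a8, S100a9 and Elane of the neutrophil list and Foxp3 of the CD4 T cell list. Other members of these lists did not. Ighm of the B cell list held 77.3 to 203 CPM and Cd79b up to 3.84 CPM. Klrb1c, Fcer1g and Eomes of the NK list held up to 25.9, 29.3 and 39.9 CPM. Cd68 of the macrophage list and Ly6g of the neutrophil list held up to 11.8 and 1.25 CPM. In the CD4 T cell list Zbtb7b held 106 to 163 CPM, Ctla4 33.2 to 194 CPM, Cd40lg 1.21 to 11.3 CPM and Cd4 0.234 to 1.70 CPM. In the dendritic cell list Zbtb46 held 16.4 to 97.8 CPM and Itgax 1.60 to 3.39 CPM, while Flt3, Xcr1 and Siglech stayed below 1 CPM. Cytosolic ribosomal protein genes took 10.8 to 15.5% of the counts, and the share was 15.5% in d9 replicate 1 and 15.1% in d9 acetate replicate 2, the 2 highest values. These 2 libraries stood apart from the others of their groups. The chi-square per degree of freedom was 63.2 and 63.5 between d9 replicate 1 and the other replicates without acetate, against 5.604 between those, and 68.1 and 70.3 for d9 acetate replicate 2, against 29.6. Their deviations from their group means correlated across genes (r = 0.51). At d5 the chi-square per degree of freedom was 25.2 between the 2 libraries without acetate and 52.4 between the 2 with it. A pair does not show which of its libraries stands apart. With labels permuted within days, this share differed between the acetate states by 0.365 points (exact permutation test, two-sided, p = 0.8; the smallest p that the 120 labelings allow is 0.0167). The difference was 1.56 points at d5 and -0.832 points at d9.

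By the shared effect, 6 of 17 effector cytokine genes, 6 of 24 cytotoxic granule genes and 6 of 23 ribosome biogenesis and MYC target genes rose with acetate. By the same measure, 3 of 24 genes of sterol supply and 4 of 26 of autophagy and the lysosome fell. These calls pool the days, and neither day was tested alone. Several of these numbers fell when single libraries were left out, as given below. Most of the changes were small. Of the 13182 genes, 539 (4.09%) were called, 327 of them higher (2.48%) and 212 lower (1.61%). The median log2 change was 0.52 among the genes called higher and -0.49 among those called lower. Only 37 of the 327 and 22 of the 212 changed by more than 2-fold, while 201 and 131 changed by less than 1.5-fold. Most calls lay near the threshold, since 525 of the 539 had an edgeR adjusted p above 0.01. In a bulk sample a change in the number of cells that make a transcript and a change in the amount per cell cannot be told apart.

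The 2 days were compared in a fit with 4 group means. All 327 genes called higher had a positive change at both days, and 211 of the 212 called lower had a negative one. The exception was Tmem35a, named after its values were seen, with a log2 change of -2.04 at d5 and 2.55 at d9. Because the genes were chosen on the same libraries, this agreement in sign is a description and not a test; over all 13182 genes the sign was the same at both days for 63.2%. The change was larger at d5 than at d9 for 230 of the 327 genes called higher and for 148 of the 212 called lower. The d5 changes rest on 2 against 2 libraries and the d9 changes on 3 against 3. The same share over all tested genes was not taken, so these counts do not show a stronger effect at d5. No gene was called by the edgeR quasi-likelihood test of the difference between the days, with 1015 genes at an unadjusted p under 0.05 and a lowest adjusted p of 0.0648. Among the 539 genes, 42 had an unadjusted p for the difference under 0.05. In 299 of the 327 genes called higher every acetate library lay above every library without acetate of its day, which was so for 5.76% of all tested genes. The opposite order held for 192 of the 212 genes called lower and for 4.69% of all tested genes. Both orders were read in the libraries that gave the calls, so they too are a description and not a test.

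**Figure D1:**
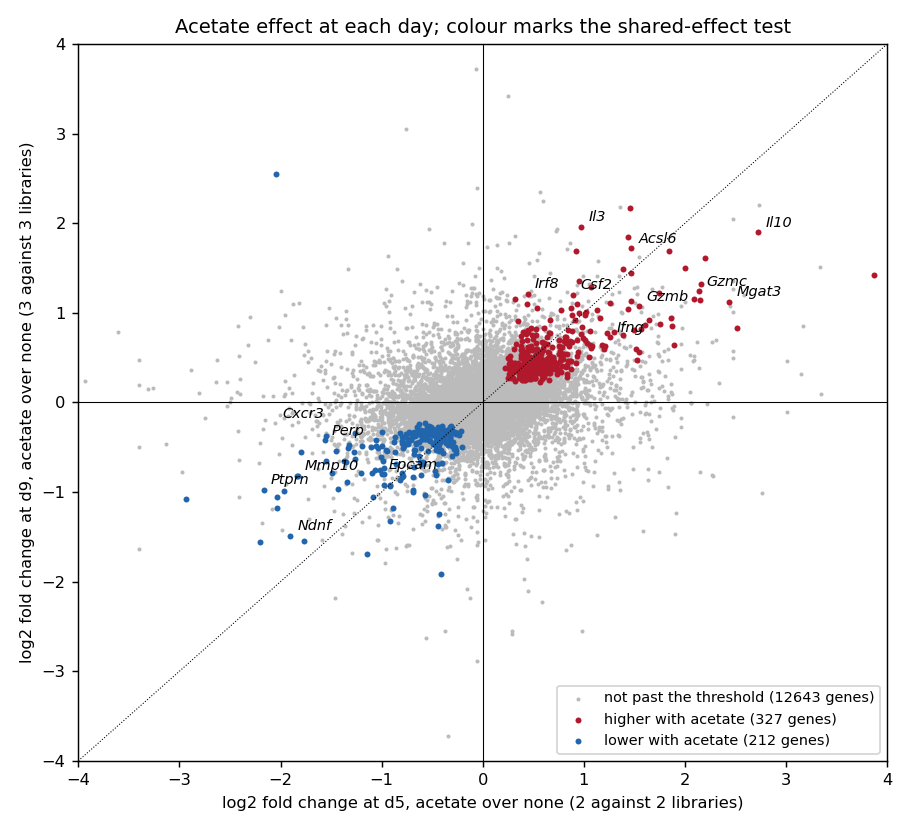
Log2 fold change with acetate at d5 (horizontal axis) against that at d9 (vertical axis), 1 point per tested gene, coloured by the call for the shared effect; 11 genes lie beyond the limits of 4. The 327 genes called higher fill the upper right and 211 of the 212 called lower the lower left. More of them lie on the d5 side of the dotted line of equal change. The d5 values rest on fewer libraries, so this does not show a stronger effect at d5.

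The secreted cytokines held the strongest calls. Of 17 effector cytokine genes tested, 6 rose (35.3%, against 2.48% of all genes) and none fell, and their median log2 change was 0.81 against 0.00 over all genes. This list and those below were drawn up with earlier results of these data known. Their shares beside those of all genes are therefore a description and not a test. Il10 encodes interleukin-10, a cytokine that restrains inflammation. At d5 it stood at 1.16 and 1.17 CPM without acetate and at 7.12 and 8.31 CPM with it. At d9 the libraries without acetate held 31.1, 23.1 and 22.1 CPM, and those with acetate 82.2, 117 and 86.1 CPM. The groups did not overlap at either day, and the d5 acetate libraries stayed below every d9 library. The shared change was 4.32-fold (log2 2.11 ± 0.18, SE; edgeR adjusted p = 0.000867).

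Csf2, the gene of the myeloid growth factor GM-CSF, moved in the same direction from a level that was higher at d5 than at d9. It stood at 200.2 and 249 CPM at d5 without acetate and at 439 and 396 CPM with it. The d9 values were 123, 135 and 123 CPM without acetate against 306, 311 and 261 CPM with it. Every d9 acetate library therefore lay above both d5 libraries without acetate. The shared change was 2.11-fold (log2 1.08 ± 0.10; edgeR adjusted p = 0.00108). Its exons share sequence with the opposite-strand gene Gm12223, and as the sources used here do not give the strand setting of the counting, the reads of the pair cannot be told apart.

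Ifng encodes interferon-gamma, the main antiviral and macrophage-activating cytokine of CD8 T cells. Without acetate it stood at 463 and 439 CPM at d5 and at 544, 553 and 577 CPM at d9. With acetate it reached 1169 and 987 CPM at d5 and 951, 1046 and 768 CPM at d9. No acetate library fell within the range of the libraries without acetate at either day or across days. The shared change was 1.91-fold (log2 0.94 ± 0.12; edgeR adjusted p = 0.00803), and its count is uncertain where exons of Gm49751 lie over it on the same strand. Lta encodes lymphotoxin alpha, a TNF family cytokine. It stood at 147 and 137 CPM against 238 and 211 CPM with acetate at d5, and at 174, 209 and 193 CPM against 277, 289 and 258 CPM at d9. Again the acetate libraries lay above the others within each day (log2 0.57 ± 0.08; edgeR adjusted p = 0.0113).

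Il3 encodes a growth factor of haematopoietic cells and lies beside Csf2 on chromosome 11. Its libraries without acetate held 14.0 and 23.5 CPM at d5 and 2.55, 3.43 and 2.65 CPM at d9. Those with acetate held 28.9 and 44.5 CPM at d5 and 9.23, 15.6 and 8.95 CPM at d9. Levels were lower at d9 than at d5 in each acetate state, and the acetate libraries lay above the others at each day (2.86-fold, log2 1.52 ± 0.26; edgeR adjusted p = 0.0158). The call for Il3 was lost without d5 replicate 1, d9 replicate 2 or d9 replicate 3, all without acetate, where its highest edgeR adjusted p was 0.0602. The sixth gene called, Il24, was named after its values were seen and had a log2 change of 1.47 ± 0.30 (edgeR adjusted p = 0.0265).

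A pair of cytokines with a known place in this setting did not pass. Il2, the gene of a growth factor of T cells, held 133 and 225 CPM without and 199 and 224 CPM with acetate at d5, where the groups overlapped. At d9 they did not, with 35.4, 23.1 and 31.9 CPM against 58.0, 86.9 and 61.9 CPM (shared log2 0.81 ± 0.22; edgeR adjusted p = 0.0639). Tnf likewise overlapped at d5, at 351 and 399 CPM against 413 and 339 CPM, and was apart at d9, at 414, 421 and 443 CPM against 631, 785 and 580.4 CPM. A single coefficient gave a log2 change of 0.39 ± 0.14 for it (edgeR adjusted p = 0.118), and the day-specific log2 changes were 0.00 at d5 and 0.64 at d9.

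**Figure D2:**
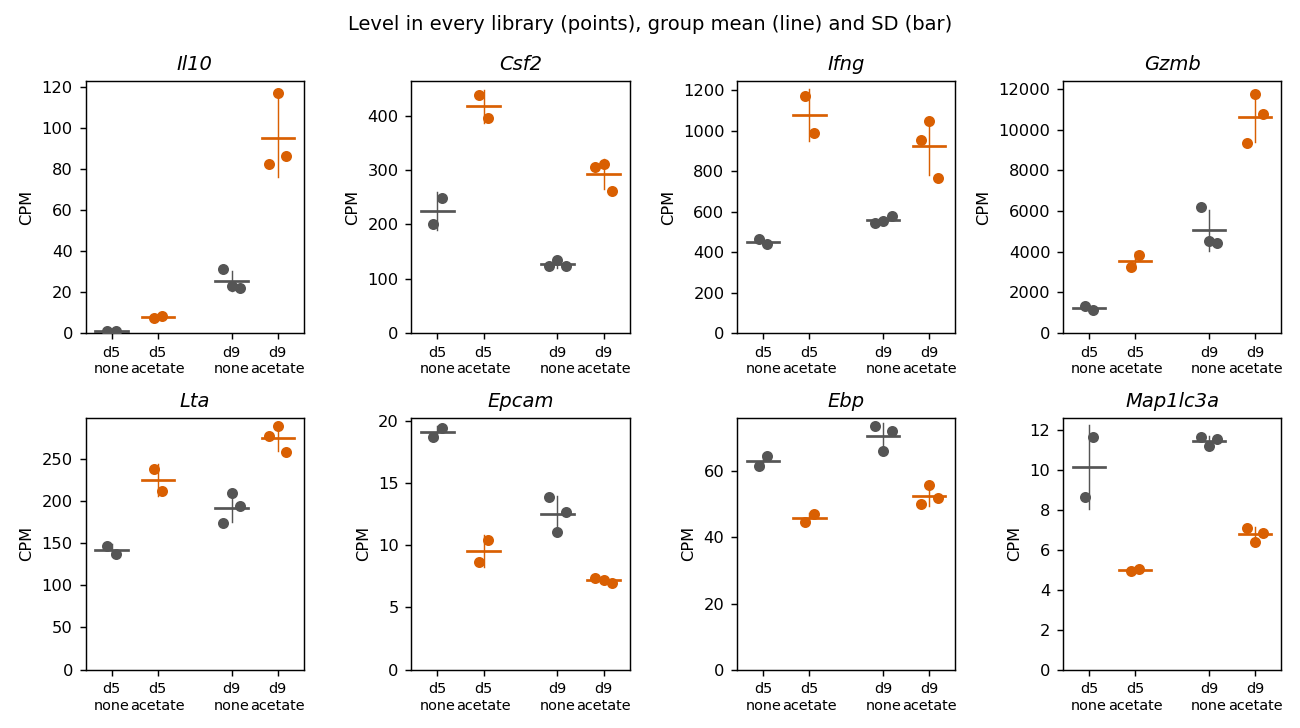
CPM in every library (points), group mean (line) and SD (bar) of 5 genes called higher and 3 called lower, with the d5 and d9 groups side by side and grey for no acetate, orange for acetate. In all 8 panels the acetate points lie on 1 side of the points of the same day without acetate.

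The sequence just before the start of 5 of these genes, 3 cytokine genes called higher and 2 sterol synthesis genes called lower, is shown because the members of each group moved together. Each is the 250 bases before the RefSeq start in GRCm38.p6, 5′ to 3′ on the gene's strand, with capitals for the core letters GGAAA that NFAT binds and the CCAAT box, on either strand. The CCAAT box was added to the search after sequences had been seen. The windows lie at chr11:54267280-54267529 for Il3 (minus strand), chr10:118440796-118441045 for Ifng (plus strand), chr17:35205352-35205601 for Lta (minus strand), chr5:114444019-114444268 for Mvk (plus strand) and chrX:8193513-8193762 for Ebp (minus strand).
Il3: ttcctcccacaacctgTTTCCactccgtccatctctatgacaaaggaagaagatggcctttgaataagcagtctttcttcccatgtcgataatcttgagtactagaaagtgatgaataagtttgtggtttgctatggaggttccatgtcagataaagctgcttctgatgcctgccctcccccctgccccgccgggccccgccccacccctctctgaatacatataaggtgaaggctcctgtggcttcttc
Ifng: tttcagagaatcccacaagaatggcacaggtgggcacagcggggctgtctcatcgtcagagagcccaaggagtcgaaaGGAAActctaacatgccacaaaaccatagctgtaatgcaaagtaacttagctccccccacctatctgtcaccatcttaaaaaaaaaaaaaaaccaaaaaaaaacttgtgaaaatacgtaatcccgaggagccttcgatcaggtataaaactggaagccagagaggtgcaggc
Lta: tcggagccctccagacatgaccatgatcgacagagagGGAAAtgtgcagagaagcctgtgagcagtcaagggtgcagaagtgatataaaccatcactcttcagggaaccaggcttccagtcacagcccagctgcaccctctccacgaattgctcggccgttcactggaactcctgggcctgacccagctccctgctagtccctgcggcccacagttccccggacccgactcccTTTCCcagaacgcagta
Mvk: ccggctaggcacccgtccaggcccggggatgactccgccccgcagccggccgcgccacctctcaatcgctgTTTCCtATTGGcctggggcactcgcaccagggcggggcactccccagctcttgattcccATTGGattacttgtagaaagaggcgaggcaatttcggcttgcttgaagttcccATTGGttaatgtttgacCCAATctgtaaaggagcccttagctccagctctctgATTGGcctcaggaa
Ebp: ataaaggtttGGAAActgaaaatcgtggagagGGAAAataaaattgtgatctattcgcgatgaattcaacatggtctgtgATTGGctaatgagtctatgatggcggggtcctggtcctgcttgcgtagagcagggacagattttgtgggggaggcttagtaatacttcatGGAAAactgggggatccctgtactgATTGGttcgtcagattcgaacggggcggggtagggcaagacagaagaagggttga
The Il3 and Ifng windows hold 1 NFAT core match each and the Lta window 2, and none of these 3 holds a CCAAT box. The Mvk window holds 5 CCAAT matches and 1 NFAT core match, and the Ebp window 2 and 3. The AP-1 letters TGANTCA are in none of the 5 windows. Such windows were found for 9484 of the 13182 genes tested, and the NFAT core was in 54.3% of them, in 57.6% of those of genes called higher (250 windows) and in 46.2% of those of genes called lower (158 windows). The shares with TGANTCA were 4.19, 4.80 and 8.23%, and those with the CCAAT box 36.8, 33.2 and 39.2%, in the same order. These matches describe letters in a short window.

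The killing machinery rose in part. Of 24 cytotoxic granule genes tested 6 rose (25%, against 2.48%), none fell, and the median log2 change was 0.40. Gzmb encodes granzyme B, the protease that starts cell death in target cells. At d5 it stood at 1314 and 1115 CPM without acetate and at 3259 and 3842 CPM with it. At d9 it stood at 6193, 4498 and 4434 CPM without acetate and at 9314, 11761 and 10768 CPM with it. The values kept apart at both days, and the d5 acetate libraries stayed below the d9 libraries without acetate (2.40-fold, log2 1.26 ± 0.14; edgeR adjusted p = 0.00316). In GRCm38 its gene spans chr14:56258838-56262260 on the minus strand. Gzmc, a neighbouring granzyme gene, rose from 287 and 171 CPM to 1013 and 1007 CPM at d5. At d9 it rose from 904, 601 and 794 CPM to 1489, 1895 and 2049.8 CPM (3.03-fold, log2 1.60 ± 0.21; edgeR adjusted p = 0.00803). Granzyme genes are near copies of each other, so the split of reads among them is uncertain.

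Beyond the proteases, the called granule genes included inhibitors and the secretion machinery. Serpinb6b, a protease inhibitor gene, stood at 192 and 236 CPM against 426 and 467 CPM with acetate at d5, and at 276, 200.3 and 189 CPM against 376, 463 and 319.8 CPM at d9 (log2 0.90 ± 0.14; edgeR adjusted p = 0.0113). Rab27a, whose product docks granules at the membrane, was 1.41-fold higher (log2 0.49 ± 0.08; edgeR adjusted p = 0.0125). The other 2, Gzmf and Serpinb9, were named after their values were seen, with log2 changes of 1.00 ± 0.19 and 0.64 ± 0.14. Prf1, which encodes the pore protein perforin, did not pass. Its d5 libraries held 311 and 169 CPM without acetate and 330 and 246 CPM with it, and its d9 libraries 519, 443 and 417 CPM against 638, 623 and 598 CPM (log2 0.36; edgeR adjusted p = 0.174). Gzma (log2 0.32) and Gzmk (0.62), 2 further granzyme genes named after their values were seen, did not pass either. Without d9 replicate 1 and d9 acetate replicate 2 together 9 granule genes rose, and without d5 replicate 1, d9 replicate 2 or d9 replicate 3 the number was 3.

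Among surface receptors and their ligands few members passed, where 2.48% of all genes tested were called higher. Of 9 chemokine genes only Ccl4 rose, which encodes a chemokine that attracts T cells and monocytes. It stood at 1297 and 1247 CPM against 1993 and 1566 CPM with acetate at d5, and at 1338, 1486 and 1801 CPM against 2241, 2487 and 2209.97 CPM at d9 (log2 0.54 ± 0.11; edgeR adjusted p = 0.0236). Among 15 chemokine receptor and homing genes 2 rose, among them Ccr2, which encodes a receptor for inflammatory chemokines (log2 0.85 ± 0.20). The d9 values of Ccr2 overlapped between 34.5 CPM in d9 replicate 1 and 32.8 CPM in d9 acetate replicate 3. Cxcr3, which guides effector T cells to inflamed tissue, had a negative change of different size at the 2 days. It stood at 38.3 and 40.7 CPM against 11.4 and 7.63 CPM with acetate at d5, but at 2.33, 2.54 and 3.48 CPM against 2.19, 2.06 and 2.86 CPM at d9 (shared log2 -1.11 ± 0.32; edgeR adjusted p = 0.0742). Tnfsf11, the gene of the TNF family ligand RANKL, was the 1 gene that rose in a list of 10 such ligands (log2 0.68 ± 0.14, edgeR adjusted p = 0.0265). Lta, a TNF family gene that rose as given above, was counted with the cytokines and not in this list.

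Klrb1c and Klre1, genes of lectin-like receptors best known from NK cells, rose among 11 NK-type receptor genes (18.2%, against 2.48% of all genes). Klrb1c stood at 1.77 and 1.23 CPM against 5.16 and 5.79 CPM with acetate at d5. Its d9 values were 13.6, 10.1 and 9.05 CPM against 18.7, 25.9 and 18.2 CPM (log2 1.21 ± 0.20; edgeR adjusted p = 0.0153). Klrb1c is also a member of the NK cell marker list, whose members summed to 11.4 to 67.5 CPM without and 15.4 to 88.0 CPM with acetate, while Ncr1 and Klra8 stayed below 1 CPM in every library. Over all 13182 genes tested, 3090 had an unadjusted edgeR p under 0.05, DESeq2 called 1371 and limma-voom called 583. Counts of these kinds for the lists here and below are to be read beside those totals. Of 18 inhibitory receptor genes 0 passed by edgeR (6 at an unadjusted p under 0.05), and DESeq2 called 3 and limma-voom 1. Of 16 costimulatory receptor genes 0 passed by edgeR (4 at an unadjusted p under 0.05), and DESeq2 called 1 and limma-voom 0. The smallest adjusted p among the inhibitory receptors was 0.0645 for Cd244a (log2 0.76), followed by 0.0667 for Cd160 (log2 0.55), both by edgeR. Among the costimulatory receptors Cd5 (log2 0.38) and Tnfrsf1b (log2 0.40) came nearest, with edgeR adjusted p of 0.0933 and 0.115.

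Of 27 transcription factor genes of effector and memory differentiation 5 rose (18.5%, against 2.48% of all genes) and none fell, with a median log2 change of 0.11. Irf8, an interferon regulatory factor, stood at 113 and 87.9 CPM against 145 and 128 CPM with acetate at d5, and at 431, 448 and 470.1 CPM against 667, 1083 and 1373 CPM at d9. Its d9 acetate libraries lay above the other d9 libraries and differed more among themselves (log2 0.91 ± 0.20; edgeR adjusted p = 0.0316). Ikzf3, which encodes the zinc finger factor Aiolos, had a log2 change of 0.71 ± 0.15, and Stat4, which relays interleukin-12 signals, one of 0.52 ± 0.09. Id2, an inhibitor of basic helix-loop-helix factors that marks effector cells, rose too (log2 0.71 ± 0.15), though d9 replicate 1 at 613 CPM lay above d9 acetate replicate 3 at 594 CPM. Tbx21, which encodes T-bet, the lead factor of type 1 responses, was named after its values were seen and passed by a narrow margin (log2 0.68 ± 0.17; edgeR adjusted p = 0.0496). With d5 replicate 1, d5 replicate 2, d5 acetate replicate 1 or d9 replicate 2 left out, 0 of the 27 passed by edgeR, and without d9 replicate 3 there was 1.

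The AP-1 factors and other early response genes, which PMA and ionomycin switch on, held 1 call. Of 16 AP-1 and BATF factor genes 0 passed by edgeR (4 at an unadjusted p under 0.05; 1 by DESeq2 and 0 by limma-voom), and their median log2 change was 0.01, with -0.34 at d5 and 0.29 at d9. The nearest were Batf3 (log2 0.73; edgeR adjusted p = 0.0546) and Junb (log2 0.49), the latter with an edgeR adjusted p of 0.160. Of 30 early response genes 1 fell (3.33%, against 1.61% of all genes), Dusp1, which encodes a MAP kinase phosphatase. It stood at 20.7 and 23.3 CPM against 10.5 and 7.84 CPM with acetate at d5, and at 24.0, 27.8 and 28.6 CPM against 19.6, 20.02 and 23.9 CPM at d9 (log2 -0.69 ± 0.17; edgeR adjusted p = 0.0478).

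Outside these groups, the protein-coding genes with the largest shared rise were taken among those with a mean log2 CPM of at least 1. Genes of lower level such as F3, the tissue factor gene (log2 1.69 ± 0.24), and Loxl2, a lysyl oxidase gene (log2 1.53 ± 0.23), both named after their values were seen, rose by as much and stayed at or below 2.05 CPM in every library. Acsl6, which encodes an enzyme that activates long-chain fatty acids with coenzyme A, stood at 5.13 and 8.003 CPM against 14.7 and 21.6 CPM with acetate at d5. At d9 it held 0.448, 0.423 and 0.392 CPM against 1.52, 1.15 and 1.53 CPM (2.96-fold, log2 1.56 ± 0.19; edgeR adjusted p = 0.00506). The level was lower at d9 in each acetate state, while the log2 change was 1.47 at d5 and 1.72 at d9. Smyd1, a lysine methyltransferase gene best known from muscle, had a log2 change of 1.27 ± 0.19, and Mex3a, which encodes an RNA-binding protein, one of 1.22 ± 0.18. Mgat3, a glycosyltransferase gene (log2 1.54 ± 0.36), Mpzl2, an adhesion gene (1.28 ± 0.22), and Siglecf, a sialic acid lectin gene (1.23 ± 0.24), rose too. Ncf1, a subunit gene of the NADPH oxidase, rose with d9 acetate replicate 1 at 67.9 CPM just above d9 replicate 3 at 66.7 CPM (1.21 ± 0.24). Bmf, a pro-apoptotic member of the BCL2 family, was the only 1 of 15 genes of that family called (6.67%, against 2.48% of all genes called higher). It stood at 3.31 and 3.39 CPM against 5.04 and 6.26 CPM with acetate at d5. At d9 it held 8.20, 9.06 and 8.75 CPM against 14.0, 12.7 and 15.3 CPM with acetate (log2 0.71 ± 0.11, edgeR adjusted p = 0.0116).

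Several genes of ribosome assembly rose. Of 23 ribosome biogenesis and MYC target genes 6 rose (26.1%, against 2.48% of all genes), none fell, and the median log2 change was 0.17. Wdr75, needed for the processing of ribosomal RNA, stood at 83.8 and 92.6 CPM against 130.4 and 133 CPM with acetate at d5 and at 91.7, 87.6 and 86.9 CPM against 118, 119.8 and 115 CPM at d9 (log2 0.47 ± 0.07; edgeR adjusted p = 0.0113). Its spread within groups was small, and the groups stayed apart at both days. Wdr43 (log2 0.52 ± 0.08) and the box C/D snoRNP core genes Nop58 (0.45 ± 0.08) and Nop56 (0.43 ± 0.09) rose as well. Polr1b and Gnl3, named after their values were seen, had log2 changes of 0.37 ± 0.09 and 0.41 ± 0.10. Of 83 cytosolic ribosomal protein genes 0 passed by edgeR, with 0 at an unadjusted p under 0.05 and 0 by DESeq2 or limma-voom, and their median log2 change was 0.03, with 0.21 at d5 and -0.08 at d9. Small RNA genes overlap exons of Nop58 and Nop56 on the same strand, so those 2 counts are uncertain. The number of ribosome biogenesis genes called was 1 without d5 replicate 1, 2 without d5 replicate 2, d5 acetate replicate 1, d9 replicate 2 or d9 replicate 3, and 3 without d5 acetate replicate 2.

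Of the 539 called genes, 39 were not protein coding, 28 higher and 11 lower. Protein-coding genes made up 500 of the 539 called and 11441 of the 13182 tested. The other genes were thus called at a lower rate than protein-coding ones. Gm17767 stood at 5.46 and 4.79 CPM against 12.9 and 15.4 CPM with acetate at d5, and at 7.97, 7.54 and 6.70 CPM against 19.6, 15.8 and 25.3 CPM at d9 (2.74-fold, log2 1.46 ± 0.14; edgeR adjusted p = 0.00108). The long intergenic RNA gene Gm36723 stood at 0.772 and 0.584 CPM against 3.19 and 2.63 CPM at d5 and at 9.54, 9.52 and 8.61 CPM against 21.5, 21.9 and 17.99 CPM with acetate at d9 (log2 1.36 ± 0.16). Both transcripts kept the groups apart at each day. Snhg1, a host gene of small nucleolar RNAs whose counts may include those RNAs, rose (log2 0.64 ± 0.09), and the long intergenic RNA gene Lockd fell, from 23.4 and 18.4 CPM to 13.0 and 11.1 CPM at d5 and from 7.88, 6.73 and 7.79 CPM to 4.05, 5.13 and 3.41 CPM at d9 (log2 -0.82 ± 0.13; edgeR adjusted p = 0.0137).

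Among the genes that fell was Epcam, an epithelial adhesion molecule gene that stood at 18.7 and 19.5 CPM against 8.63 and 10.4 CPM with acetate at d5, and at 13.9, 11.05 and 12.7 CPM against 7.38, 7.19 and 6.99 CPM at d9 (1.84-fold lower, log2 -0.88 ± 0.11; edgeR adjusted p = 0.00468). The groups did not overlap at either day, and the gene spans chr17:87635979-87651129 on the plus strand in GRCm38. Ndnf, a secreted factor gene, had the lowest log2 change by the naming rule, -1.62 ± 0.25 (edgeR adjusted p = 0.0121), at 1.54 and 2.98 CPM against 0.617 and 0.579 CPM at d5 and at 3.31, 4.19 and 2.61 CPM against 1.64, 0.916 and 1.02 CPM at d9. Mmp10, a matrix protease gene, fell from 96.8 and 112 CPM to 23.3 and 35.2 CPM at d5, but its d9 values were all near 1 CPM, 1.16, 1.06 and 1.09 CPM against 1.05, 0.504 and 0.298 CPM (log2 -1.50 ± 0.26). Uchl1, a deubiquitinating enzyme gene, stood at 12.1 and 11.7 CPM against 6.00 and 5.26 CPM at d5 and at 10.9, 18.1 and 15.6 CPM against 6.15, 9.57 and 5.80 CPM at d9 (log2 -1.06 ± 0.17). Exons of Uchl1 overlap Uchl1os on the opposite strand.

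The 12 protein-coding genes with the lowest change that met the naming rule also included Ptprn (log2 -1.44), Try5 (-1.37), Tnfrsf23 (-1.33), Slc4a11 (-1.12), Ank (-1.05), Anxa3 (-0.98), Ecm1 (-0.94), Cspg5 (-0.92) and Pcyt1b (-0.90). Try5 belongs to the trypsin family of close copies, so its count is uncertain. Ank, a pyrophosphate transporter gene, shows how uneven some of these were, at 80.5 and 74.2 CPM against 23.9 and 20.7 CPM at d5, but 28.3, 35.6 and 33.1 CPM against 28.2, 16.6 and 21.3 CPM at d9. At d9 the highest acetate library and the lowest library without acetate almost touched. Perp, a p53 target gene for a membrane protein, was the 1 of 16 p53 targets called (6.25%, against 1.61% of all genes called lower). It went from 16.3 and 16.2 CPM to 5.32 and 5.68 CPM at d5. At d9 it went from 9.85, 8.04 and 8.79 CPM to 6.87, 6.87 and 6.14 CPM (log2 -0.87 ± 0.19, edgeR adjusted p = 0.0328). Cd68, a lysosomal membrane protein gene that also marks macrophages, fell (log2 -0.76 ± 0.16; edgeR adjusted p = 0.0277), and the macrophage list it belongs to summed to 8.09 to 12.4 CPM without and 4.68 to 6.74 CPM with acetate. The part of other cells in this fall was not tested, and the 5 other markers of that list stood below 1 CPM in every library. Pecam1, an adhesion gene of T cells and endothelium, rose (log2 0.59 ± 0.14; edgeR adjusted p = 0.0431), with the stromal and endothelial genes Col1a1, Col1a2, Cdh5 and Pdgfra below 1 CPM throughout.

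Some genes of sterol supply fell. Of 24 cholesterol synthesis and uptake genes 3 fell (12.5%, against 1.61%) and none rose, 20 had a negative change, and the median log2 change was -0.16. Ebp encodes a sterol isomerase of the late pathway. Its libraries held 61.5 and 64.5 CPM against 44.7 and 47.0 CPM at d5 and 73.8, 66.2 and 72.0 CPM against 50.0, 55.8 and 51.8 CPM with acetate at d9 (log2 -0.44 ± 0.07; edgeR adjusted p = 0.0150). Mvk, the mevalonate kinase gene, had a narrow spread, with 15.6 and 16.5 CPM against 12.1 and 12.3 CPM at d5 and 20.02, 19.3 and 20.1 CPM against 14.0, 15.3 and 14.8 CPM at d9 (log2 -0.42 ± 0.08; edgeR adjusted p = 0.0236). Both genes kept the groups apart at both days. The number called in the list was 6 without d9 replicate 1 and 1 without d5 replicate 1, d5 acetate replicate 1 or d9 replicate 3. The promoter windows printed above are those of Mvk and Ebp.

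The largest number of calls for lower levels in a list was in autophagy and the lysosome. Of 26 tested 4 fell (15.4%, against 1.61% of all genes) and none rose, 21 had a negative change, and the median log2 change was -0.20. Map1lc3a, whose product coats autophagosomes, stood at 8.66 and 11.6 CPM against 4.93 and 5.05 CPM with acetate at d5, and at 11.6, 11.2 and 11.5 CPM against 7.08, 6.41 and 6.86 CPM at d9 (1.81-fold lower, log2 -0.86 ± 0.11; edgeR adjusted p = 0.00843). Its relative Map1lc3b had a smaller change (log2 -0.36 ± 0.09; edgeR adjusted p = 0.0438). Atg7, the enzyme gene that starts LC3 conjugation, and Psap, the gene of the lysosomal saposins, had log2 changes of -0.43 ± 0.09 and -0.51 ± 0.09. Psap stood at 248 and 217 CPM against 150.5 and 136 CPM at d5 and at 228, 259.8 and 236 CPM against 198, 176 and 180.2 CPM with acetate at d9. The number called in this list was 1 without d5 replicate 1, d5 replicate 2, d5 acetate replicate 1, d9 replicate 2 or d9 replicate 3. Fth1, which encodes the iron-storing ferritin heavy chain, was the 1 gene called among 19 NRF2 and iron handling genes (5.26%, against 1.61% of all genes). Fth1 has processed pseudogenes that can share its reads. It stood at 619 and 809.9 CPM against 434 and 391 CPM at d5 and at 790.2, 893 and 974 CPM against 629.8, 585 and 659 CPM at d9 (log2 -0.62 ± 0.11; edgeR adjusted p = 0.0158).

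The genes that handle acetate itself were not called. Of 16 genes for the uptake of acetate and the turnover of acetyl-CoA, 0 passed by edgeR (4 at an unadjusted p under 0.05; 3 by DESeq2 and 0 by limma-voom), with a median log2 change of -0.04. Acss2, the cytosolic and nuclear acetyl-CoA synthetase gene, stood at 4.63 and 5.37 CPM against 4.54 and 4.79 CPM with acetate at d5, and at 25.5, 17.6 and 16.6 CPM against 15.8, 14.98 and 13.9 CPM at d9 (log2 -0.31; edgeR adjusted p = 0.206). Its counts are uncertain, since other genes lie over it on the opposite strand. Acss1, the mitochondrial synthetase gene, stood at 4.85 and 5.72 CPM against 5.38 and 4.42 CPM at d5 and at 6.31, 6.35 and 4.48 CPM against 5.52, 5.54 and 5.07 CPM at d9, with overlap at both days (log2 -0.10; edgeR adjusted p = 0.711). The nearest of the list was Slc16a1, the gene of the monocarboxylate carrier MCT1 (log2 0.44 ± 0.11; edgeR adjusted p = 0.0535). Of 30 genes of histone acetylation writers, erasers and readers 0 passed by edgeR (4 at an unadjusted p under 0.05; 2 by DESeq2 and 0 by limma-voom), with Sirt7 (log2 -0.27) and Sirt3 (log2 0.38) nearest, at edgeR adjusted p of 0.0724 and 0.0741.

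Lists of metabolism, division and the cytoskeleton leaned to 1 side with few calls. Over all 13182 genes tested, 6648 had a positive and 6534 a negative change, while 2.48% were called higher and 1.61% lower. All 19 hypoxia response genes had a positive change (median log2 0.57), and 2 rose (10.5%). Vegfa, an angiogenic factor gene, stood at 74.1 and 84.0 CPM against 110.1 and 129.7 CPM with acetate at d5, and at 139.8, 116 and 98.5 CPM against 148, 168 and 238 CPM at d9 (log2 0.63 ± 0.14; edgeR adjusted p = 0.0314). Ero1l, an oxidase gene of protein folding, rose (log2 0.92 ± 0.22; edgeR adjusted p = 0.0439), although d9 replicate 1 at 545 CPM lay above d9 acetate replicate 1 at 518 CPM. Of 21 glycolysis genes 17 had a positive change and only Pfkfb3 rose, the gene of an enzyme that makes the activator of phosphofructokinase (log2 0.73 ± 0.18; edgeR adjusted p = 0.0499). Its d9 groups overlapped, with 63.2, 54.2 and 43.8 CPM against 57.2, 93.3 and 125 CPM. With any 1 of the 4 d5 libraries, d9 replicate 2 or d9 replicate 3 left out, 0 genes of either list passed by edgeR. Without d9 replicate 1 there were 6 hypoxia and 4 glycolysis genes, and without d9 acetate replicate 1 there were 4 of each. Without d9 acetate replicate 2 or 3 the numbers by edgeR were 1 and 0.

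Of 25 G2/M genes 24 had a negative change (median log2 -0.36) and 0 passed by edgeR, with 13 at an unadjusted p under 0.05, 2 by DESeq2 and 0 by limma-voom. The kinetochore motor gene Cenpe, nearest at an edgeR adjusted p of 0.0612, stood at 37.4 and 45.6 CPM against 38.1 and 23.5 CPM with acetate at d5, where the groups overlapped, and at 3.63, 3.81 and 4.26 CPM against 1.81, 2.66 and 2.47 CPM at d9. Of 30 actin cytoskeleton and SRF target genes 23 had a negative change (median log2 -0.26). Flna, the gene of the actin crosslinker filamin A, fell (log2 -0.46 ± 0.12, edgeR adjusted p = 0.0488). It was the 1 call in that list (3.33%, against 1.61% of all genes called lower). The number called lower in that list was 10 without d9 replicate 1, 14 with the ribosomal protein share as a covariate and 2 without d9 acetate replicate 3. By edgeR it was 0 without any 1 of the 4 d5 libraries, d9 replicates 2 or 3, or d9 acetate replicate 2. Of 88 nuclear-encoded respiratory chain genes 66 had a negative change (median log2 -0.13). In each direction 1 was called (1.14%), against 2.48% of all genes higher and 1.61% lower. Ndufaf4, an assembly factor gene of complex I, rose (log2 0.47 ± 0.10), and Cox6a2, a subunit gene of cytochrome oxidase, fell (log2 -1.01 ± 0.21) with overlap at d5. The number of respiratory chain genes called lower was 5 without d9 replicate 1, 10 without that library and d9 acetate replicate 2 together, 38 with the ribosomal protein share as a covariate and 6 by DESeq2. It was 0 without d5 replicate 2, d5 acetate replicate 1, d9 replicates 2 or 3, or d9 acetate replicates 1 or 3. All 8 mitochondrially encoded mRNAs tested had a positive change (median log2 0.18), and 0 passed by edgeR (1 at an unadjusted p under 0.05; 1 by DESeq2 and 0 by limma-voom), the nearest being mt-Co1 (log2 0.44; edgeR adjusted p = 0.0777).

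**Figure D3:**
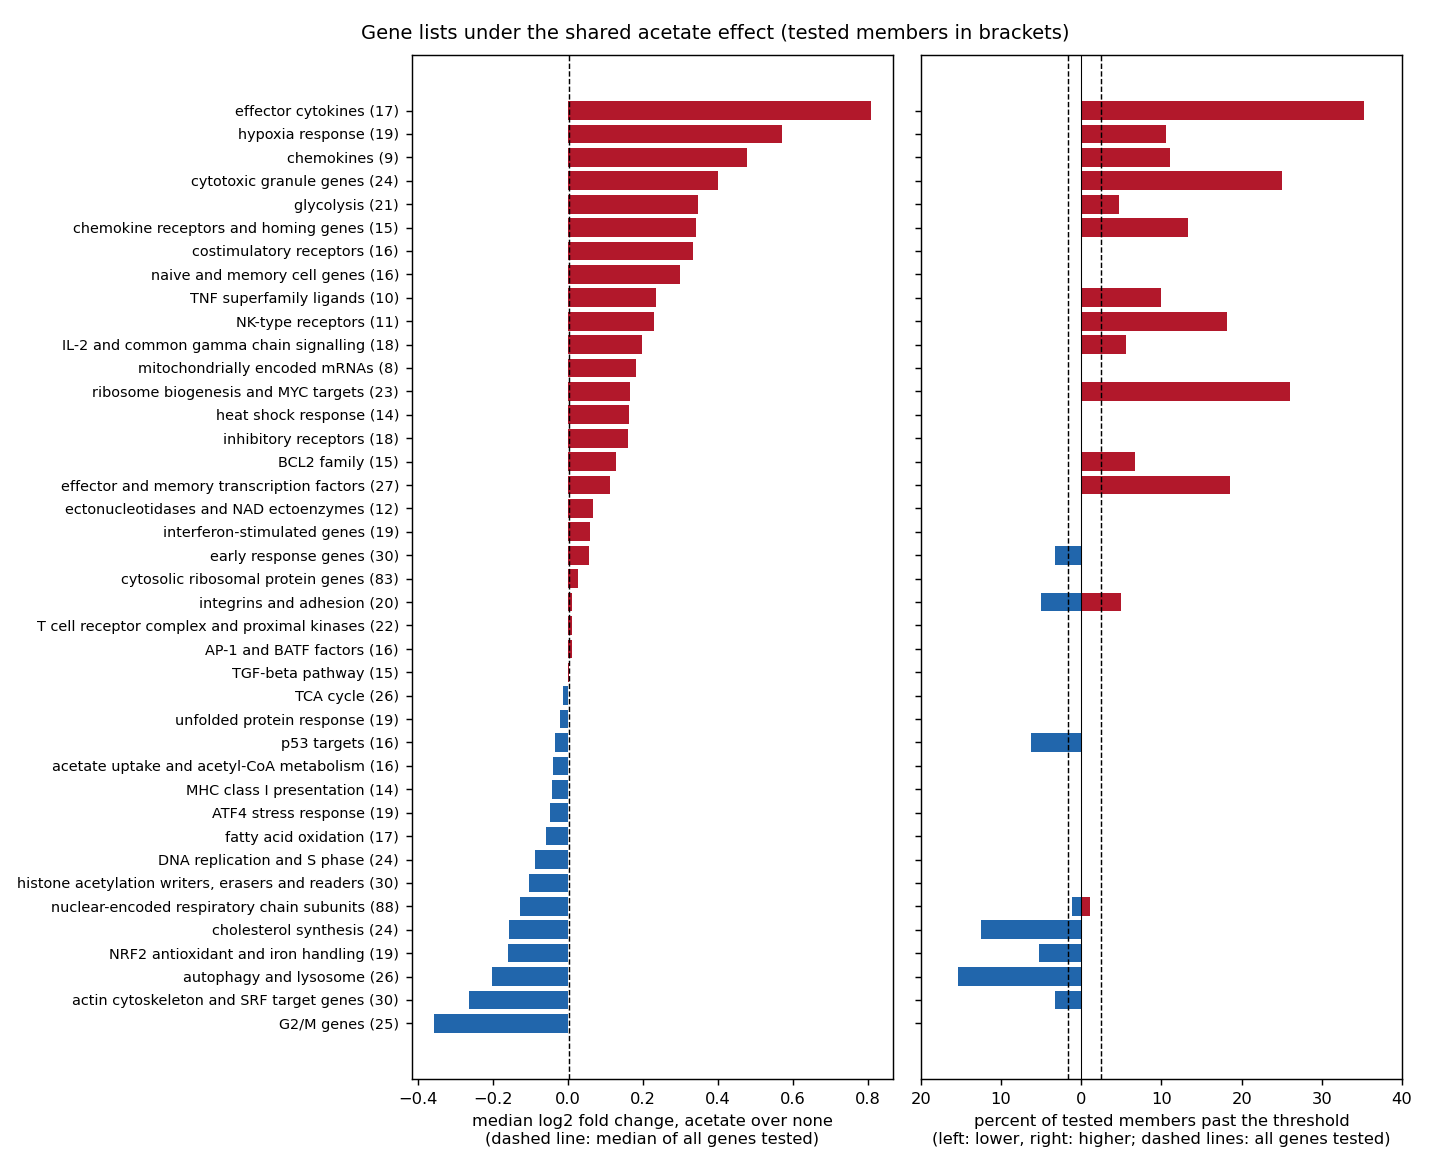
Median log2 fold change of each gene list with at least 8 tested members, cell type marker lists left out (left) and the percent of its tested members called lower or higher (right), with tested members in brackets and dashed lines for all genes tested. Among the lists plotted, effector cytokines have the highest median, 0.81, and the highest share called, 35.3%, while G2/M genes have the lowest median, -0.36, with none called.

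The genes called in each direction had unlike median transcript composition. Over protein-coding genes, the median GC content of the longest transcript was 45.9% for the genes called higher, 49.8% for all tested and 54.1% for those called lower. Ranked by GC content and split into 5 bins of about equal size, the lowest bin (30.96 to 43.88%) had 4.20% of its genes called higher and 0.262% called lower, and in the highest bin (55.58 to 74.2%) these shares were 1.14 and 2.89%. The median log2 change went from 0.17 in the lowest to -0.12 in the highest bin, from 0.22 to -0.19 at d5 and from 0.13 to -0.08 at d9. Median exonic length was 4593 bases for genes called higher, 4454 for all tested and 3355 for those called lower. With trends in GC content and length removed from each library, an alternative added after the data were seen, 618 genes were called, 353 of them higher, and 388 of the 536 calls that could be tested again remained. In that fit 6 effector cytokine, 7 granule, 5 ribosome biogenesis and 1 hypoxia gene rose, and 5 sterol and 4 autophagy and lysosome genes fell.

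**Figure D4:**
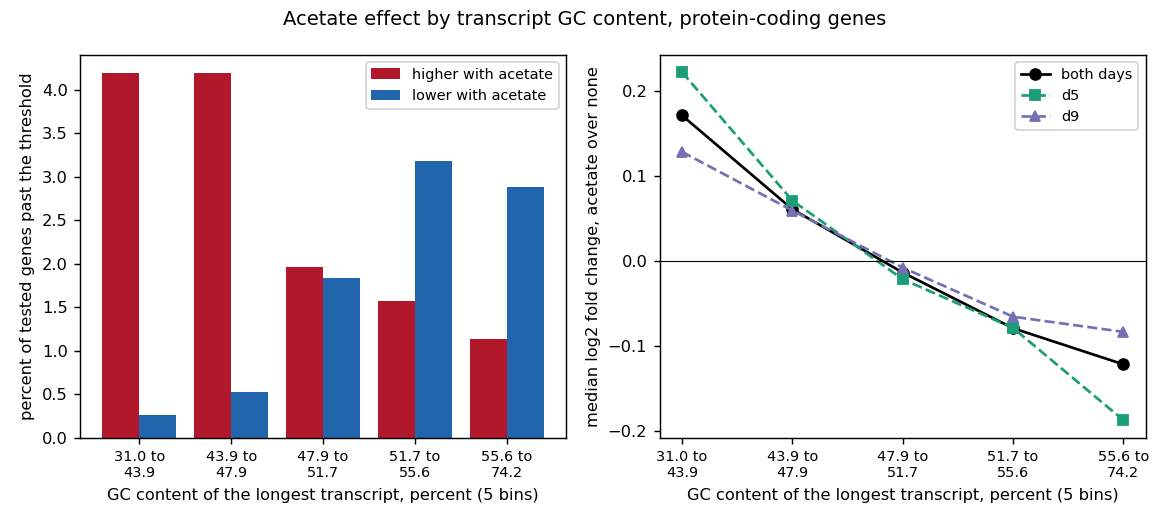
Percent of protein-coding genes called higher and lower with acetate (left) and median log2 fold change for both days, d5 and d9 (right), by 5 bins of transcript GC content. Calls shift from higher, 4.20% against 0.262%, in the lowest bin to lower, 2.89% against 1.14%, in the highest.

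How many genes passed rested on single libraries. Leaving out 1 library at a time gave between 43 genes (without d9 replicate 3) and 1518 genes (without d9 replicate 1, the library with the highest ribosomal protein share). Without each of d5 replicates 1 and 2 the numbers were 49 and 87, without d5 acetate replicates 1 and 2 they were 70 and 160, without d9 replicate 2 there were 49, and without d9 acetate replicate 3 there were 302. Where d5 was left with 1 library in a group, that library is assumed to vary like the others. Without d9 replicate 1 and d9 acetate replicate 2 together 1596 genes passed, 877 higher and 719 lower. In that fit 6 effector cytokine, 9 granule, 6 transcription factor, 6 ribosome biogenesis and 4 hypoxia genes rose, and 6 sterol and 6 autophagy and lysosome genes fell. Of the 539 genes, 36 were called in each of the 10 fits with 1 library left out, 29 higher and 7 lower. The 7 included Epcam, Map1lc3a, Cspg5 and, named after their values were seen, Vrk3, Mcrip1 and Tmem43. Il10, Csf2, Ifng, Lta, Gzmb, Gzmc, Serpinb6b, Acsl6, Mex3a, Smyd1, Bmf, Wdr75, Snhg1, Gm17767 and Gm36723 were among the 29. F3 and Loxl2, named above for their low level, kept their calls in each of these fits too. Every other gene named above as having risen or fallen lost its call without at least 1 library, most often d5 replicate 1, d9 replicate 2 or d9 replicate 3.

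**Figure D5:**
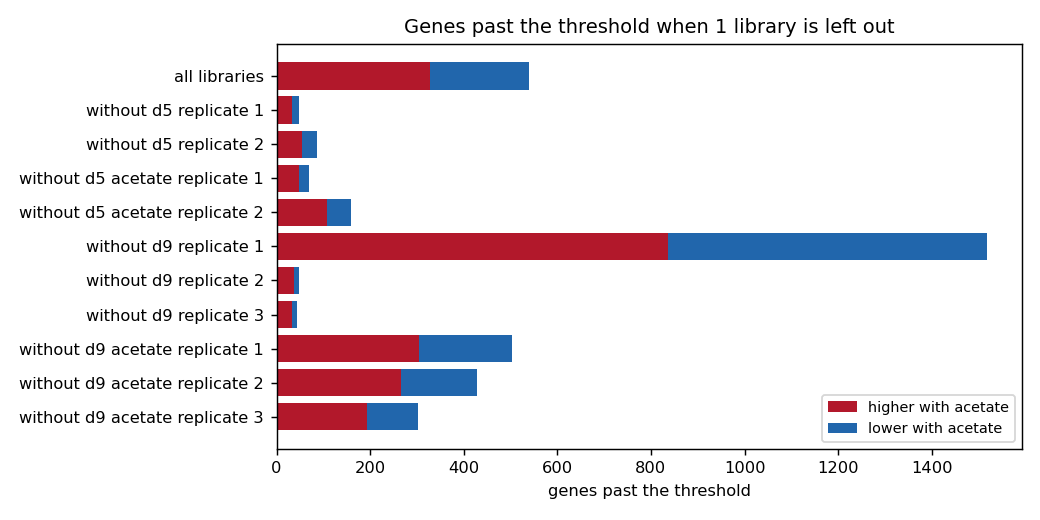
Number of genes called higher and lower with all libraries and with each library left out in turn. The number falls to 43 without d9 replicate 3 and rises to 1518 without d9 replicate 1, against 539 with all libraries.

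In the 22 alternatives of scaling, filter, test, model and libraries, 538 of the 539 genes kept the direction of their change. The alternatives refit the libraries that gave the calls, so this is a description and not independent support. Called in all 22 were 6 genes, all higher: Il10, Csf2, Gm17767, Acsl6 and, named after their values were seen, Lgalsl and Sema4c. Lgalsl, which encodes a galectin-related protein, stood at 11.8 and 9.29 CPM against 21.1 and 19.8 CPM with acetate at d5 and at 7.03, 5.97 and 6.18 CPM against 14.2, 11.8 and 12.4 CPM at d9 (log2 0.98 ± 0.11; edgeR adjusted p = 0.00316). Sema4c, a semaphorin gene, stood at 20.5 and 18.7 CPM against 43.4 and 31.5 CPM at d5 and at 7.52, 9.02 and 10.4 CPM against 16.8, 16.6 and 24.2 CPM with acetate at d9 (log2 1.03 ± 0.15; edgeR adjusted p = 0.0113). For both, every acetate library lay above every library of its day without acetate.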

How the data were processed

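Stranded poly(A) RNA libraries were sequenced on an Illumina HiSeq, per the labels. Each deposited file holds the raw count of every gene in 1 library, without normalization. Per the submitters' processing notes deepTools, STAR, featureCounts and DESeq2 were used with the GRCm38 build; the sources used here give no roles, settings, annotation release or strandedness. Of 53465 genes, 53360 matched GENCODE M21 identifiers, and the rest held at most 0.00689% of a library. Library sizes were TMM-scaled, and filterByExpr by group (minimum count 10) kept 13182 genes. Depth was 16.59 to 24.66 M counts. The additive model was fitted in edgeR 4.0.16 (R 4.3.3, robust quasi-likelihood, 7 residual degrees of freedom, common biological coefficient of variation 0.168). The days were set side by side in a fit of 4 group means. SE was taken as |log2 change| over the root of F.

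The members, lists and tests were chosen with earlier results of these data known. Named genes were the 12 highest and 12 lowest protein-coding calls whose mean log2 CPM was 1 or more and without overlap within a day, 12 genes of cytokines, granules, Cxcr3 and acetyl-CoA synthesis, up to 4 called members of each list (or the 2 of smallest p) and 4 non-coding genes; all others are marked. Alternatives were DESeq2 size factors, library size, other filters, DESeq2 1.42.0, limma-voom (limma 3.58.1), glmTreat, group means, a replicate block, a ribosomal protein covariate, left-out libraries, and removal of GC and length trends. Tested on simulated data with 200 of 13182 genes changed, the shared-effect fit recovered 38.8, 89.6 and 98.5% of 1.5-, 2- and 4-fold changes and called 7 unchanged genes. The simulated libraries varied independently, unlike d9 replicate 1 and d9 acetate replicate 2, so these rates need not hold for the real libraries. Promoter windows come from RefSeq (GRCm38.p6). All 10 libraries were used. Some single-gene values are left out.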

Additional observations from a re-analysis of the deposited data

How the results depend on the processing

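Against 539 genes called, the count was 554 with DESeq2 size factors, 502 with library sizes only, 633 and 630 with the looser and the stricter filter, 583 by limma-voom, 777 for the mean of the 2 days' effects and 618 with GC and length trends removed. It was 1371 by the DESeq2 Wald test, 22 against a minimum change of 1.2-fold (18 higher), 2780 with the ribosomal protein share as a covariate (46.9% higher, against 60.7%) and 1596 without d9 replicate 1 and d9 acetate replicate 2 together. Leaving out 1 library gave 43 to 1518. Same-numbered libraries of a day deviated together with correlations of 0.03 at d5 and -0.14, -0.39 and 0.33 at d9. With 2 libraries a group, the d5 value is the same for both replicate numbers by construction. Libraries d9 replicate 1 and d9 acetate replicate 2, of unlike number, correlated at 0.51. With so few libraries these values cannot decide whether the replicate numbers mark pairs. The additive model took none, and with a replicate block 7 genes were called, 6 higher. The ribosomal protein share differed by -0.286 to 0.910 points without 1 library, with -0.181 without d5 acetate replicate 2 and -0.286 without d9 acetate replicate 2; the cause was not tested. Over named genes and alternatives, 2112 values kept their side of the threshold, 427 lost it, 164 gained it and none changed sign. With 2 or 3 libraries a group and 7 residual degrees of freedom, changes near 1.5-fold were often too small for the test to call.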
